A study of Mus musculus with 24 samples.

Results

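Hepatocyte organoids (Hep-Orgs) and cholangiocyte organoids (Cho-Orgs), the 2 kinds of mouse liver organoid in the series, were compared at the same passage number. The 12 libraries, of 24 in the series, are those labelled Hep-Orgs P5, Hep-Orgs P10, Cho-org-P5-M and Cho-org-P10-M, with 3 libraries in each group, and P5 was set beside P5 and P10 beside P10. They were chosen by these labels and not by any measured value. Both kinds of organoid came from the liver of adult BALB/c mice of the wild type and carry no introduced allele. Hep-Orgs started from EpCAM-negative, Percoll-purified hepatocytes in Matrigel, in a medium with CHIR99021, R-spondin1, EGF, FGF7, FGF10, HGF, A83-01 and ROCK inhibitor to which the Notch inhibitor DAPT and dexamethasone were added. Cho-Orgs started from EpCAM+ cells and were grown with Noggin, Wnt3a, forskolin, R-spondin1, EGF, FGF10, HGF, A83-01 and ROCK inhibitor, without DAPT or dexamethasone. The cell of origin, the medium and the table in which the values were deposited all change together between Hep-Orgs and Cho-Orgs, so their effects cannot be told apart. The study's legends tie the library numbers 1 to 3 to 3 mice and its methods speak of independent experiments, so the spread between libraries may be that of cultures.

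Hepatocytes make most proteins of the blood plasma, store and release glucose, detoxify drugs through cytochrome P450 enzymes and secrete bile acids. Cholangiocytes line the bile ducts, carry a cytoskeleton of simple-epithelial keratins, and modify bile through chloride channels, water channels and bicarbonate exchange. Both descend from the hepatoblast and share transcription factors such as Onecut1 and Foxa2, and cells of either kind can take on features of the other in culture or after injury.

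The recovered totals were 18827825 to 19316707 fragments in Hep-Orgs P5, 14068906 to 18022217 in Hep-Orgs P10, 37752034 to 38277290 in Cho-Orgs P5 and 37427651 to 38090252 in Cho-Orgs P10. The hepatocyte table departed from its labels in several respects. Its libraries labelled Hep-Orgs and those labelled Primary hepatocytes were nearly alike: of 10986 genes, limma called 1 between Hep-Orgs P5 and Primary hepatocytes, with 1184 at an unadjusted p under 0.05, and 0 between Hep-Orgs P10 and Primary hepatocytes, with 730 at that p. The chi-square per degree of freedom of fragment counts was 1.99 to 4.11 between these groups and 1.95 to 3.2 between libraries of one group, above 1 in every pair, so that no pair differed by as little as sampling noise. Several defining genes of the hepatocyte were not found in the libraries labelled Hep-Orgs. Cyp2e1, Cyp7a1, Cyp8b1, Gys2 and the bile salt pump Abcb11 were listed at 0 in all 6, while the biliary genes Mmp7, Spp1 and Krt19 were high there. The name Hep-Orgs is kept below as the label of these libraries. The study's materials name male mice, and the transcript Xist of the inactive X chromosome, which male cells do not normally make, was at an FPKM of 171 to 186 in Hep-Orgs and 83.8 to 157 in Cho-Orgs.

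The tables were normalized apart, so FPKM was compared through ranks. The 19226 symbols found once in each table were ranked within each library, and each rank was given the mean log2(FPKM + 1) that this rank has over the 12 libraries. The result is called the level, and a level difference is always Hep-Orgs minus Cho-Orgs, in log2 units, with the SE over 3 and 3 libraries. It is not a fold change of FPKM, and it understates differences of genes near 0. It can also differ in sign from the FPKM, since the median difference of log2(FPKM + 1) as deposited was -0.25 at P5 and -0.24 at P10. A gene was called higher in one kind when its 3 libraries all lay above the 3 of the other kind and the mean levels differed by at least 1. No test was run across the tables. The calls were counted over the 11136 symbols whose FPKM reached 1 in 3 or more of the 12 libraries. A gene that reached this filter in one kind alone passed it through being high there, so its call in that direction is no independent result. Gene lists were therefore counted over the members that reached it in 3 or more libraries of each kind, which 9644 symbols did, a split chosen after seeing the data. Of these 9644, 14.5% were called higher in Hep-Orgs and 13.5% higher in Cho-Orgs at P5, and 14.6% and 14% at P10. Counts of list members are read against these shares, and medians against 0.11 at P5 and 0.05 at P10.

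At P5, 1731 of the 11136 symbols were called higher in Hep-Orgs (15.5%) and 1843 higher in Cho-Orgs (16.5%), in all 32.1%. At P10 the counts were 1707 (15.3%) and 1768 (15.9%), in all 31.2%. The same direction at both passages was found for 1312 symbols higher in Hep-Orgs (11.8%) and 1267 higher in Cho-Orgs (11.4%), in all 2579 (23.2%). These 1312 are 75.8% of the Hep-Orgs calls at P5 and 76.9% of those at P10, and the 1267 are 68.7% and 71.7% of the Cho-Orgs calls. The direction turned between P5 and P10 for 1 symbol called higher in Hep-Orgs at P5, the carboxylesterase Ces2a, and for 4 called higher in Cho-Orgs at P5, namely Apoa1, Bsg, Olfm4 and Prap1, which were looked up after their values were seen. The size limit mattered, since the 3 and 3 libraries lay apart without it for 89.3% of symbols at P5 and 89.4% at P10. The split depended on scaling: with TPM over the shared symbols, 2759 symbols were higher in Hep-Orgs and 1777 in Cho-Orgs at P5, and 2870 and 1576 at P10, while the median difference over all symbols moved from 0.08 to 0.28 at P5 and from 0.02 to 0.29 at P10. Over the 9 pairs of libraries of unlike kind, the Spearman correlation across symbols had a median of 0.757 at P5 and 0.764 at P10. It was 0.997 between Hep-Orgs P5 and P10 and 0.942 between Cho-Orgs P5 and P10, where libraries share a table.

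**Figure D1:**
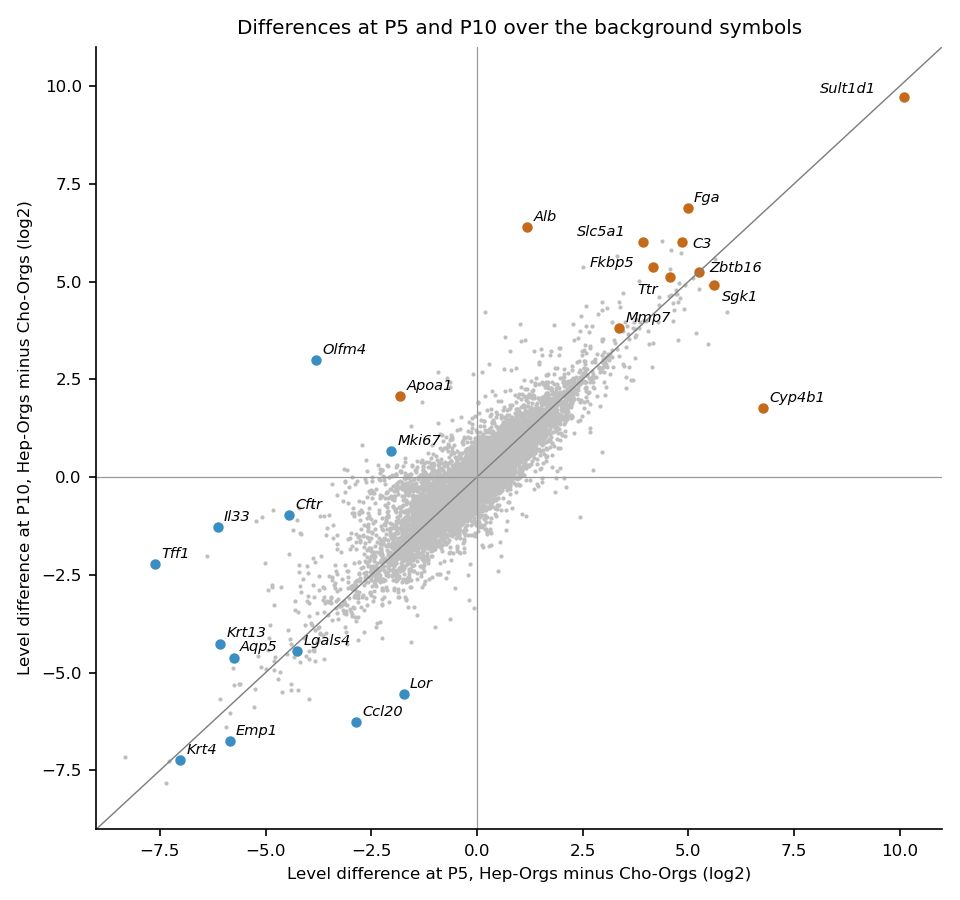
Level differences of the 11136 symbols, Hep-Orgs minus Cho-Orgs in log2 units, at P5 (x axis) and at P10 (y axis). Each grey point is a symbol, named genes are coloured by the sign of their summed difference, and the line marks equal differences. Sult1d1 and Krt4 keep their places at both passages, whereas Alb, Olfm4, Il33, Cyp4b1 and Ccl20 lie far from the line.

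The tables used different gene lengths. The length behind each FPKM, listed in the hepatocyte table and recovered in whole bases from the values of the cholangiocyte table, was the same to the base for 2.08% of 11106 symbols. It was at least 2-fold longer in the hepatocyte table for 1433 symbols (12.9%) and at least 2-fold shorter for 549 (4.94%). Of the symbols called higher in Cho-Orgs, 36.4% at P5 and 37.1% at P10 had a length at least 2-fold longer in the hepatocyte table, against 2.23% and 2.44% of those called higher in Hep-Orgs. The comparison was therefore repeated with the Cho-Orgs values put on the lengths of the hepatocyte table, here called common lengths, a step chosen after seeing the data. It changes the length alone and takes the fragments of a gene as counted over the same stretch in both tables. This was not tested, so a call lost on common lengths does not show that the difference came from length. On common lengths 1066 symbols were higher in Hep-Orgs (9.57%) and 1277 in Cho-Orgs (11.5%) at P5, in all 21%, with 1098 (9.86%) and 1217 (10.9%) at P10, in all 20.8%, and 743 (6.67%) and 777 (6.98%) at both, in all 13.6%. Of the calls at both passages, 1264 (49%) were also made on common lengths, 629 higher in Hep-Orgs and 635 higher in Cho-Orgs, and 4 were made in the other direction. Each named difference below that lost its call on common lengths is given with that value.

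**Figure D2:**
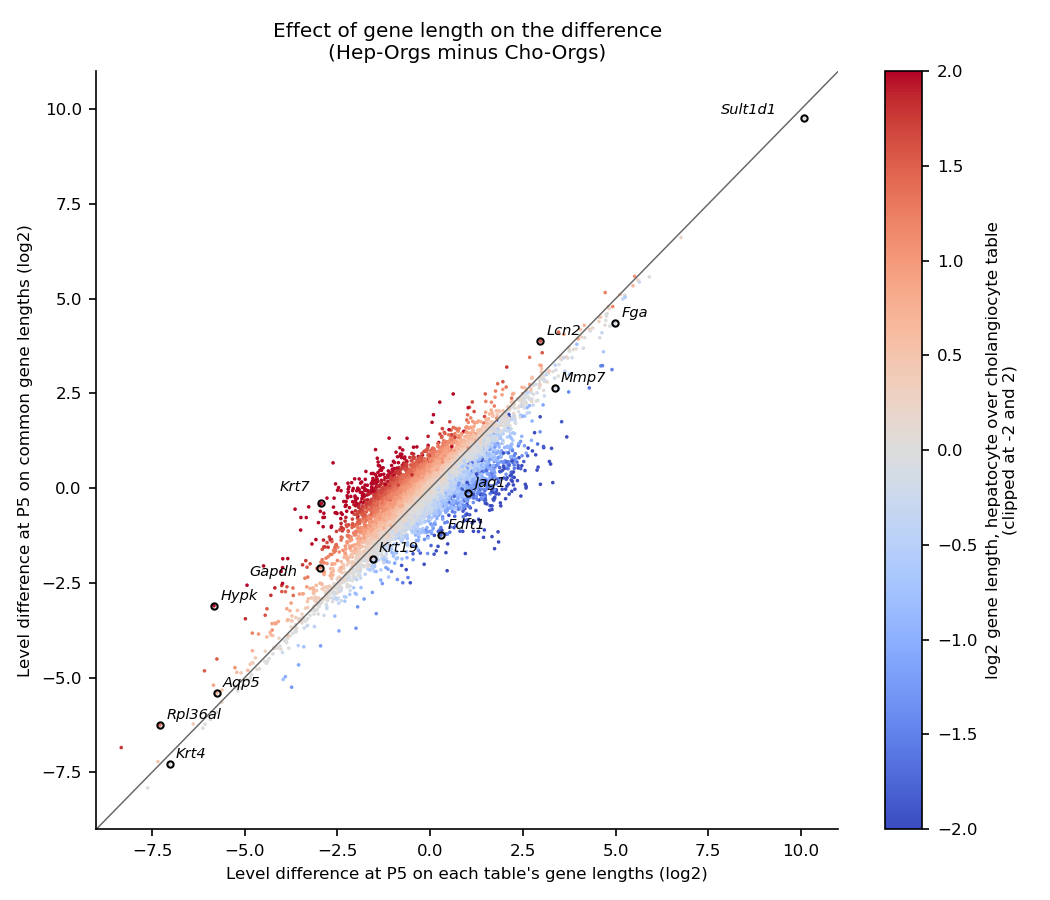
Level difference at P5, Hep-Orgs minus Cho-Orgs in log2 units, on each table's own gene lengths (x axis) and on common lengths (y axis). Each point is a symbol coloured by the log2 ratio of its length in the hepatocyte table to that in the cholangiocyte table, clipped at -2 and 2, and the line marks equal values. Krt7 moves from -2.94 to -0.40, while Sult1d1, Fga, Krt4 and Aqp5 stay near the line.

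Secreted plasma proteins measured in both kinds were mostly higher in Hep-Orgs, with more of them called at P10. Of 22 members of this list 12 reached the filter in each kind, and at P5 7 of the 12 were called higher in Hep-Orgs (14.5% of all symbols so measured) and 2 higher in Cho-Orgs (13.5%). At P10 10 were higher in Hep-Orgs (14.6% of all) and 1 in Cho-Orgs (14%), and the median level difference over the 12 went from 1.04 at P5 to 3.75 at P10, beside 0.11 and 0.05 over all symbols so measured. On common lengths 6 and 2 were called at P5 and 10 and 1 at P10. Of the others 1, Apoh, reached the filter in Hep-Orgs alone, 1 over both kinds together, and 8 did not. Fga, the fibrinogen alpha chain, had an FPKM of 288, 279.7 and 289 in Hep-Orgs P5 and 290.5, 292 and 297 in Hep-Orgs P10. In Cho-Orgs its FPKM was 9.13, 20.2 and 14.5 at P5 and 2.49, 2.45 and 2.91 at P10. All 6 Hep-Orgs libraries were far above all Cho-Orgs libraries, and the level difference was 4.98 ± 0.30 at P5 and 6.89 ± 0.06 at P10. C3, the central complement protein, was at 1521, 1510.0 and 1532 in Hep-Orgs P5 and 1522, 1499 and 1521 in Hep-Orgs P10. It was at 67.7, 89.2 and 73.5 in Cho-Orgs P5 and 34.6, 33.6 and 32.1 in Cho-Orgs P10. The groups did not overlap, and the difference was 4.85 ± 0.11 at P5 and 6.02 ± 0.03 at P10. Ttr, which carries thyroid hormone and retinol-binding protein, was at 429 to 454 in Hep-Orgs P5, 418 to 436 in Hep-Orgs P10, 27.5 to 33.2 in Cho-Orgs P5 and 18.5 to 21.5 in Cho-Orgs P10. Its difference was 4.57 ± 0.08 and 5.11 ± 0.06.

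Alb, which encodes serum albumin, differed much more at P10 than at P5. Its FPKM was 128, 109 and 107 in Hep-Orgs P5, 113, 112 and 109.6 in Hep-Orgs P10, 66.5, 91.3 and 80.7 in Cho-Orgs P5 and 0.534, 0.5695 and 0.647 in Cho-Orgs P10. Hep-Orgs lay above Cho-Orgs by little at P5, with a difference of 1.19 ± 0.14, and by much at P10, with 6.39 ± 0.04. On common lengths the P5 difference was 0.91, under the size limit. Fgb and Fgg, the other fibrinogen chains, were also at a smaller difference at P5, 1.03 ± 0.22 and 2.52 ± 0.25, than at P10, 3.92 ± 0.04 and 5.36 ± 0.07. Apoa1, the main protein of high-density lipoprotein, was in Cho-Orgs P5 (20.3, 15.96 and 23.9) above Hep-Orgs P5 (3.595, 3.91 and 4.16) and in Cho-Orgs P10 (0.265, 0.297 and 0.135) below Hep-Orgs P10 (4.21, 4.37 and 3.68). It was called higher in Cho-Orgs at P5 and higher in Hep-Orgs at P10. Trf, which encodes transferrin, was the member higher in Cho-Orgs at both passages, at -3.84 ± 0.10 and -2.17 ± 0.03, but 51% of its 100-base transcript windows also occur in transcripts of another gene, so its counting in either table is uncertain. Among the members that did not reach the filter was Apoa2, listed at 0 in all 6 Hep-Orgs libraries and at 0 to 0.114 in Cho-Orgs.

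Promoters of 4 genes higher in Hep-Orgs are shown because each holds a short motif known as an HNF1 motif. They are the 250 bases upstream of the start site in RefSeq on GRCm38.p6, 5′ to 3′ on the strand of the gene, with the motif GTTAAT or its reverse complement ATTAAC in capitals. Alb lies at chr5:90460620-90460869 on the plus strand, Fga at chr3:83025903-83026152 on the plus strand, Fgb at chr3:83049864-83050113 on the minus strand and Sult1d1 at chr5:87569007-87569256 on the minus strand.
Alb: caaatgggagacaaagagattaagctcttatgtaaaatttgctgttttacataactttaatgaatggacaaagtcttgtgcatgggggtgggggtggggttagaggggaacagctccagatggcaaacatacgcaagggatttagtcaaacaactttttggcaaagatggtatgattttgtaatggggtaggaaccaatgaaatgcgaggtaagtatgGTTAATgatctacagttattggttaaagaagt
Fga: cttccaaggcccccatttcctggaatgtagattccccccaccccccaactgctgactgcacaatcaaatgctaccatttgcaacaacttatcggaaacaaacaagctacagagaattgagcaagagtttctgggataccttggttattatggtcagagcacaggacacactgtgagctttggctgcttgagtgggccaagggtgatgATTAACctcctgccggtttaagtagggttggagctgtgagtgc
Fgb: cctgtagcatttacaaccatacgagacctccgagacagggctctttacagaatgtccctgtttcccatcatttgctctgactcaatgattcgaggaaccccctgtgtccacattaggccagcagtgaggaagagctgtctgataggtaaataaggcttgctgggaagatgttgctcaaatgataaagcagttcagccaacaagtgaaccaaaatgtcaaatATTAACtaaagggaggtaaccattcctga
Sult1d1: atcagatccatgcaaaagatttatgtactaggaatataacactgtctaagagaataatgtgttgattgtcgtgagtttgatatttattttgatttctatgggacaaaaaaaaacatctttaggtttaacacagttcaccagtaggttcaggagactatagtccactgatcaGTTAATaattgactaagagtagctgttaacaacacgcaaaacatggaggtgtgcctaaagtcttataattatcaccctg
The first capital lies 32 bases upstream of the start site in Alb, 43 in Fga, 29 in Fgb and 79 in Sult1d1. Of the 17 plasma protein promoters that were found in RefSeq, 6 hold the motif on either strand (35.3%), as do 6.43% of all 32851 promoters. It was not found in the same window of Fgg, C3 or Slc2a2. The HNF4 motif CAAAGTCC, which cannot overlap the HNF1 letters by more than a base at its ends, or its reverse complement GGACTTTG was found in 0 of the 17 and in 1.2% of all promoters. The HNF1 and HNF4 letters were found in 3 (16.7%) and 2 (11.1%) of 18 promoters of hepatocyte metabolism genes, in 1 (8.33%) and 0 of 12 of squamous genes, and in 0 and 0 of 9 of glucocorticoid-linked genes. A match describes letters only and is not a binding site.

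**Figure D3:**
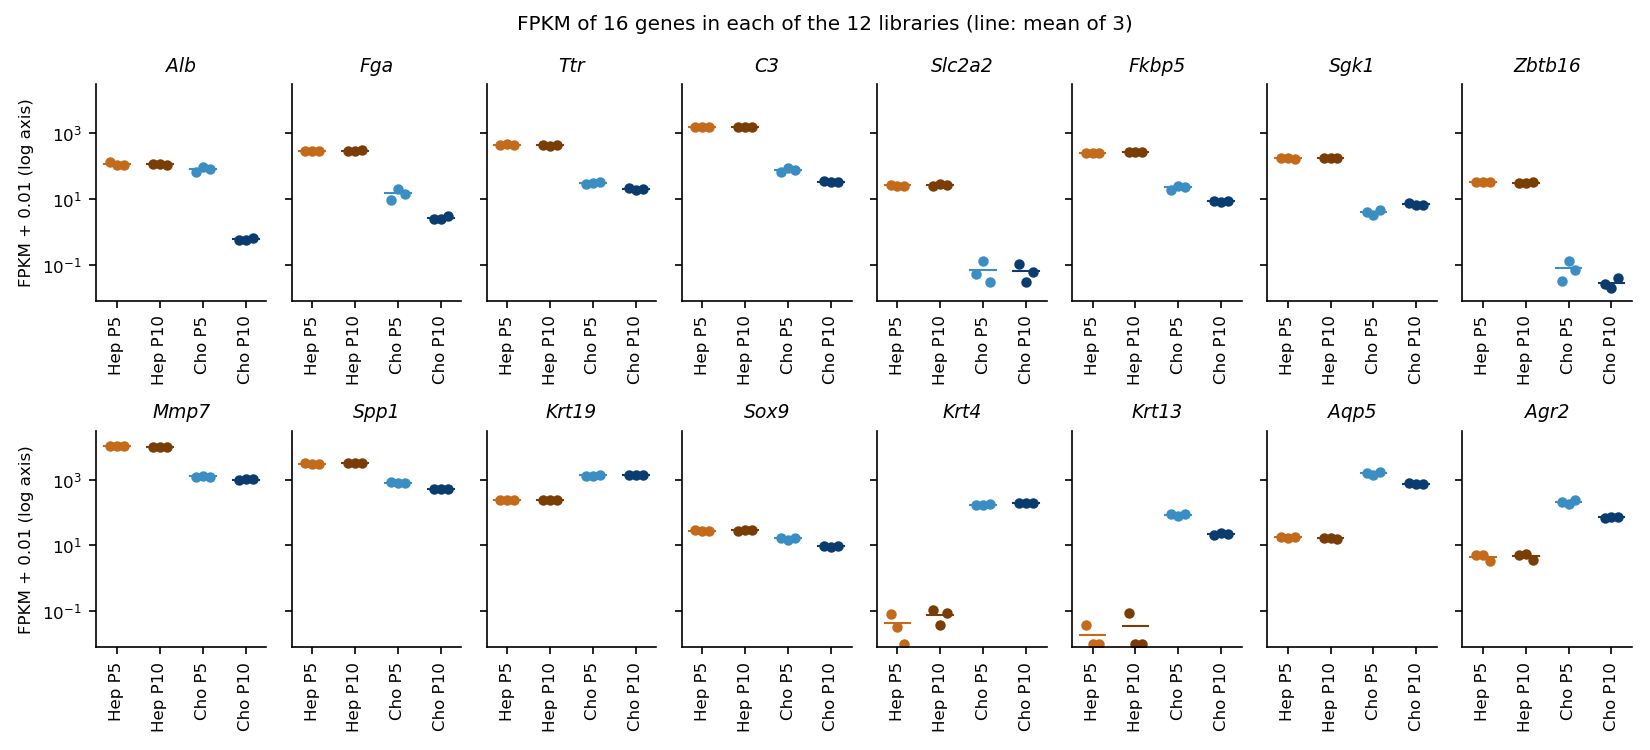
FPKM of 16 genes in the 12 libraries, each point a library and each line the mean of 3, on a log axis after adding 0.01. Plasma protein and glucocorticoid-linked genes of the upper row lie higher in Hep-Orgs, Krt4, Krt13, Aqp5 and Agr2 lie higher in Cho-Orgs, and the Hep-Orgs groups at P5 and P10 lie close together except for Krt4 and Krt13, which were near 0 there.

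Most of the few metabolic genes of the hepatocyte that were measured in both kinds were higher in Hep-Orgs. Of 27 listed genes 14 did not reach the filter, 5 reached it in Hep-Orgs alone, 2 in Cho-Orgs alone and 6 in each kind. Of these 6, 4 were higher in Hep-Orgs at P5 (14.5% of all symbols so measured) and 5 at P10 (14.6%), and 0 were higher in Cho-Orgs, with a median of 2.21 and 3.15 and the same counts on common lengths. Slc2a2, the low-affinity glucose transporter of liver and islets, was at 26.4, 25.2 and 25.02 in Hep-Orgs P5 and 24.99, 27.7 and 26.4 in Hep-Orgs P10, against 0.0203 to 0.122 over the 6 Cho-Orgs libraries. Slc2a2 reached the filter in Hep-Orgs alone, so its difference of 4.92 ± 0.05 and 4.92 ± 0.06 is no independent result. Cyp2d10, a drug-metabolizing cytochrome P450, was at 137 to 178 in Hep-Orgs, 2.31 to 3.604 in Cho-Orgs P5 and 9.77 to 11.7 in Cho-Orgs P10. Its difference was 5.91 ± 0.16 and 4.22 ± 0.12. The xenobiotic P450 genes Cyp1a2 and Cyp3a11 were low in Hep-Orgs, at 5.37 to 6.61 and 4.44 to 5.84, and at or near 0 in Cho-Orgs, at 0 to 0.152 and 0 to 0.0516. Of the urea cycle genes, Cps1 was at 0.795 to 1.15 in Hep-Orgs and listed at 0 in all Cho-Orgs libraries, and Otc was listed at 0 in Hep-Orgs and at 0 to 0.0249 in Cho-Orgs. Arg1, which makes urea, and Tat, which degrades tyrosine, were the 2 members that reached the filter in Cho-Orgs alone, with P5 differences of -1.33 ± 0.11 and -1.19 ± 0.10, with an FPKM in Cho-Orgs P5 of 1.77 to 2.44 for Arg1 and 2.39 to 3.17 for Tat. The Arg1 difference was -0.96, not called, on common lengths.

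Transcription factors of hepatocytes were called in part. Of 15 listed, 10 reached the filter in each kind and 2 in Hep-Orgs alone. Of the 10, 3 were higher in Hep-Orgs and 0 in Cho-Orgs at P5 (14.5% and 13.5% of all symbols so measured), with 3 and 1 at P10 (14.6% and 14%). On common lengths the counts were 3 and 1 at P5 and 3 and 2 at P10. Prox1, a factor of early liver growth, was at 12.2 to 12.99 in Hep-Orgs, 1.004, 1.71 and 1.18 in Cho-Orgs P5 and 0.287, 0.248 and 0.242 in Cho-Orgs P10, a difference of 2.95 ± 0.13 and 3.54 ± 0.03. Nr1h4, the bile acid receptor FXR, was at 15.5 to 18.7 in Hep-Orgs and 1.23 to 1.83 in Cho-Orgs, a difference of 3.12 ± 0.09 and 3.10 ± 0.08. Both factors had groups that did not overlap at either passage. Hnf4a, a master regulator of hepatocyte genes, was not called, with 23.3 to 25.7 in Hep-Orgs and 54.04 to 63.04 in Cho-Orgs and a difference of -0.72 ± 0.05 at P5 and -0.68 ± 0.04 at P10. On common lengths it was called higher in Cho-Orgs, at -1.06 and -1.01. Foxa2, which opens liver enhancers, was not called either, at 0.00 ± 0.06 and 0.54 ± 0.04.

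Markers of the cholangiocyte were present in both kinds of organoid and were split in direction. All 14 were at an FPKM of at least 1 in every library. At P5 4 were higher in Hep-Orgs and 4 in Cho-Orgs (14.5% and 13.5% of all symbols so measured). At P10 the counts were 3 and 4 (14.6% and 14%), and the median difference was -0.0023 at P5 and -0.03 at P10. On common lengths the counts were 2 and 4 at P5 and 3 and 3 at P10. Mmp7, a matrix metalloproteinase of injured bile ducts, was at 10227, 10276 and 10202 in Hep-Orgs P5 and 10035, 9696 and 9679 in Hep-Orgs P10. It was at 1218, 1309 and 1229 in Cho-Orgs P5 and 982, 1009 and 1028 in Cho-Orgs P10. It was the top-ranked gene of Hep-Orgs and was higher there by 3.36 ± 0.03 and 3.81 ± 0.01. Spp1, which encodes osteopontin, was at 3086, 3056 and 3020.0 in Hep-Orgs P5, 3237, 3156 and 3159 in Hep-Orgs P10, 841, 772 and 802 in Cho-Orgs P5 and 531, 527 and 525 in Cho-Orgs P10, with a difference of 2.59 ± 0.05 and 3.19 ± 0.01. Of the listed keratins, Krt19, Krt23 and Krt7 were called the other way. Krt8, at -0.17 ± 0.04 and -0.33 ± 0.04, and Krt18, at 0.19 ± 0.03 and 0.10 ± 0.03, were not called. Krt19 was at 235, 236 and 247 in Hep-Orgs P5, 244, 238 and 238 in Hep-Orgs P10, 1320.0, 1320.0 and 1379 in Cho-Orgs P5 and 1387, 1420.0 and 1399 in Cho-Orgs P10. The groups did not overlap and the difference was -1.55 ± 0.03 and -1.50 ± 0.03. Krt23 was higher in Cho-Orgs by a like amount at both passages, -2.63 ± 0.12 and -2.69 ± 0.04. Krt7 was at 48.7 to 50.8 in Hep-Orgs and 661 to 924 in Cho-Orgs, but its difference of -2.94 ± 0.03 and -3.31 ± 0.03 became -0.40 and -0.93 on common lengths and was no longer called. Epcam, the surface protein used to sort the starting cells, was not called, at 262 to 279 in Hep-Orgs, 478 to 496 in Cho-Orgs P5 and 256 to 263 in Cho-Orgs P10.

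More biliary transcription factors were called higher in Hep-Orgs than in Cho-Orgs. Of the 11 that reached the filter, each of them in both kinds, 6 were higher in Hep-Orgs and 3 in Cho-Orgs at P5 (14.5% and 13.5% of all symbols so measured). At P10 the counts were 6 and 2 (14.6% and 14%), and the median difference was 1.09 at P5 and 1.01 at P10. On common lengths these counts were 4 and 2 at both passages. Hhex, needed for liver bud and bile duct development, was at 111, 112 and 109 in Hep-Orgs P5, 115, 113 and 112 in Hep-Orgs P10, 35.7, 32.2 and 34.5 in Cho-Orgs P5 and 56.9, 58.2 and 57.8 in Cho-Orgs P10. Sox9, the early factor of the ductal plate, was at 28.7, 27.97 and 28.2 in Hep-Orgs P5, 27.7, 28.7 and 29.8 in Hep-Orgs P10, 17.1, 14.9 and 16.8 in Cho-Orgs P5 and 9.57, 8.99 and 9.55 in Cho-Orgs P10. Each had 3 Hep-Orgs libraries above 3 Cho-Orgs libraries, by 2.25 ± 0.04 and 1.56 ± 0.02 for Hhex and by 1.22 ± 0.05 and 1.93 ± 0.04 for Sox9. The Sox9 difference at P5 was 0.91 on common lengths and was not called there. Onecut2, a factor of liver and bile duct development, was higher in Hep-Orgs at both passages, with differences of 2.13 ± 0.03 and 1.48 ± 0.02. Sox4 and Foxq1 were higher in Cho-Orgs, at -1.19 ± 0.09 and -2.97 ± 0.05 at P5, and many windows of each occur in another gene (55.7% and 60.3%). Klf5 at P5 was called higher in Cho-Orgs at -1.22 ± 0.03 and stood at -0.08 on common lengths.

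Transport genes of the duct were called in part, more of them higher in Hep-Orgs. Of 11 that reached the filter in each kind 4 were higher in Hep-Orgs and 1 in Cho-Orgs at P5, and 3 and 1 at P10, the same on common lengths. The Hep-Orgs counts are above the share of all symbols so measured, which was 14.5% and 14.6%. The Cho-Orgs count is not above its share, which was 13.5% and 14%. Slc5a1, the sodium-glucose cotransporter that takes glucose out of bile, was at 80.8, 76.6 and 77.7 in Hep-Orgs P5 and 80.03, 79.3 and 78.9 in Hep-Orgs P10, against 5.48, 7.42 and 5.402 in Cho-Orgs P5 and 0.387, 0.515 and 0.455 in Cho-Orgs P10. Aqp5, a water channel of glands, was at 18.2, 17.1 and 17.8 in Hep-Orgs P5 and 16.7, 16.6 and 15.9 in Hep-Orgs P10, against 1637, 1414 and 1667 in Cho-Orgs P5 and 762, 738 and 726 in Cho-Orgs P10. Slc5a1 was thus higher in Hep-Orgs by 3.93 ± 0.13 and 6.02 ± 0.04, and the difference of Aqp5 was -5.75 ± 0.10 and -4.62 ± 0.05. Cftr, the cAMP-gated chloride channel that drives bile secretion, was at 0.0682 to 0.162 in Hep-Orgs, 25.01, 26.5 and 29.2 in Cho-Orgs P5 and 1.02, 1.03 and 1.06 in Cho-Orgs P10. It reached the filter in Cho-Orgs alone and was called at P5, at -4.45 ± 0.07, and not at P10, at -0.97 ± 0.02. Aqp1 and Pkhd1, which encodes fibrocystin of the cilium, were higher in Hep-Orgs at both passages, by 1.87 ± 0.08 and 2.06 ± 0.05 at P5. The Aqp1 difference at P10 was 1.49 ± 0.03, and 0.92 on common lengths, where it was not called.

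**Figure D4:**
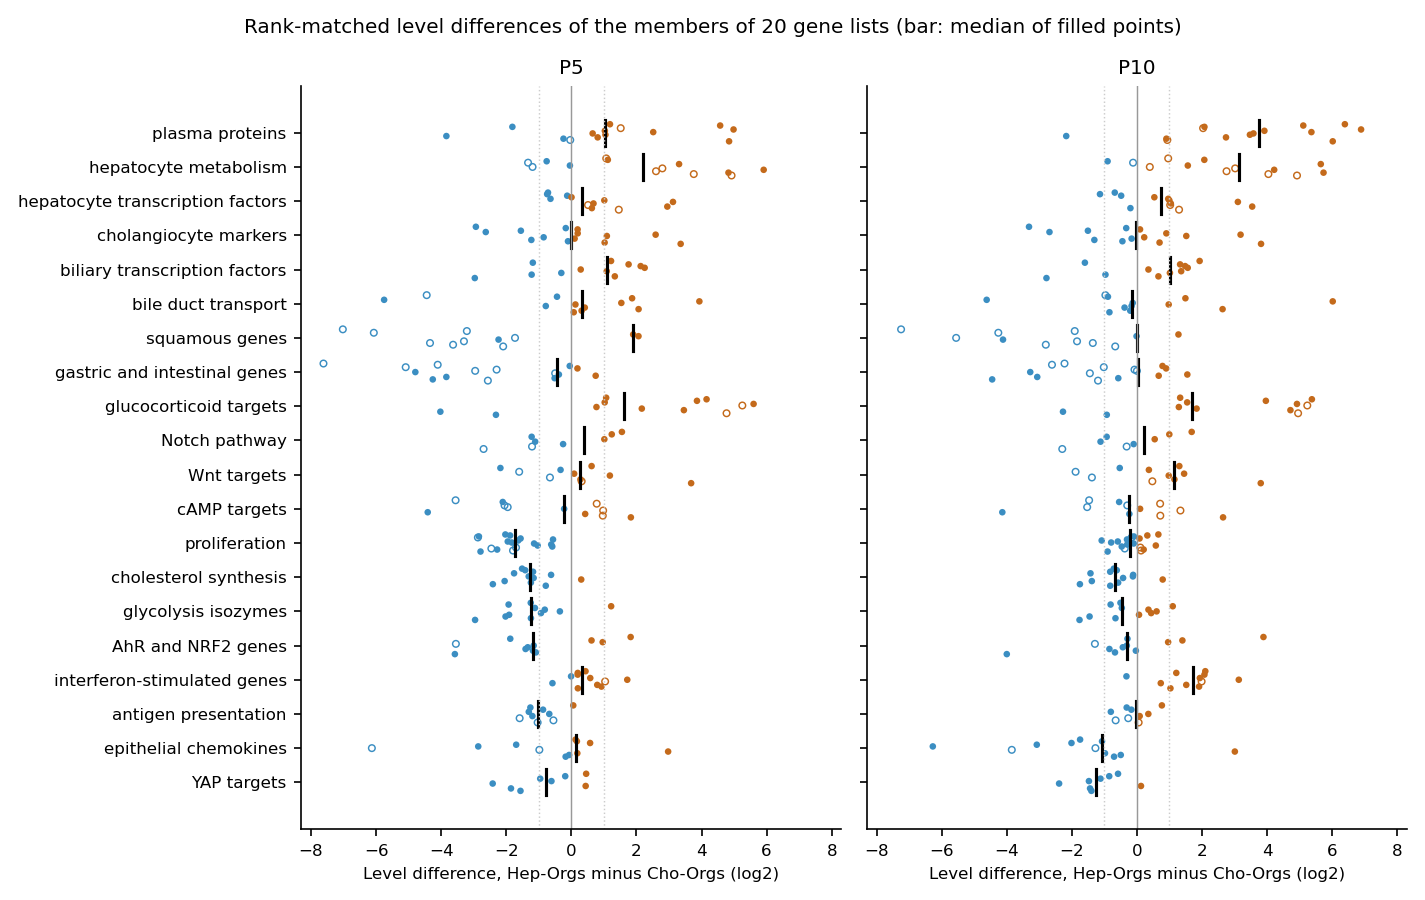
Level differences of the measured members of 20 gene lists at P5 (left) and P10 (right), Hep-Orgs minus Cho-Orgs in log2 units. Each point is a gene, orange above 0 and blue below, filled where it reached the filter in each kind and open where it did not, the black bar is the median of the filled points, and the dotted lines mark 1 and -1. The filled points of plasma proteins and glucocorticoid targets lie mostly to the right at both passages, those of proliferation genes to the left at P5 and about 0 at P10, and most squamous genes are open points on the left.

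Genes of squamous epithelium that reached the filter did so mainly in Cho-Orgs alone. Of 19 listed, 8 did not reach it, 8 reached it in Cho-Orgs alone and 3, Krt20, Ivl and Sprr1a, in each kind. The 8 passed the filter through their values in Cho-Orgs, and these are given as a description. Of the other 3, 2 were higher in Hep-Orgs and 1 in Cho-Orgs at P5, and 1 and 1 at P10, too few to set beside the share of all symbols. Krt4, a keratin of the oesophagus, was at 0.0735, 0.0241 and 0 in Hep-Orgs P5 and 0.1001, 0.0288 and 0.0781 in Hep-Orgs P10, against 169, 168 and 175 in Cho-Orgs P5 and 191, 189 and 192 in Cho-Orgs P10. Krt13, its partner, was at 0 to 0.0782 in Hep-Orgs, 90.7, 75.6 and 90.7 in Cho-Orgs P5 and 21.2, 23.1 and 21.8 in Cho-Orgs P10. Both were near 0 in every Hep-Orgs library, and the differences were -7.02 ± 0.03 and -7.25 ± 0.03 for Krt4 and -6.07 ± 0.08 and -4.26 ± 0.05 for Krt13. Sprr1a, a precursor of the cornified envelope, was at 22.5 to 28.3 in Hep-Orgs, 187, 166 and 197 in Cho-Orgs P5 and 794, 781 and 829.9 in Cho-Orgs P10. Dsg3, a desmosomal cadherin, was listed at 0 in all 6 Hep-Orgs libraries and was at 21.9 to 23.6 in Cho-Orgs P5 and 1.28 to 1.66 in Cho-Orgs P10. Krt20, a keratin of the gut lining listed with them, was the member higher in Hep-Orgs at both passages, at 1.90 ± 0.02 and 1.28 ± 0.03, and the P10 difference was 0.85, not called, on common lengths. Ivl, an envelope precursor, was higher in Hep-Orgs at P5 by 2.06 ± 0.14 and stood at -0.01 ± 0.05 at P10.

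Of 18 gastric and intestinal genes 8 reached the filter in each kind, 7 in Cho-Orgs alone and 3 not at all. Of the 8, 3 were higher in Cho-Orgs at P5 and 3 at P10 (13.5% and 14% of all symbols so measured), while 0 and 1 were higher in Hep-Orgs, with medians of -0.45 and 0.05 and the same counts on common lengths. The 3 were Lgals4, Agr2 and Cdx2. Lgals4, a galectin of the intestinal lining, was at 15.3 to 19.4 in Hep-Orgs, 573, 592 and 599 in Cho-Orgs P5 and 671, 675 and 682 in Cho-Orgs P10. Agr2, an isomerase that folds mucins, was at 5.22, 5.103 and 3.36 in Hep-Orgs P5, 5.18, 5.46 and 3.697 in Hep-Orgs P10, 204, 186 and 237 in Cho-Orgs P5 and 69.05, 70.6 and 72.1 in Cho-Orgs P10. Their groups did not overlap, with differences of -4.26 ± 0.10 and -4.45 ± 0.05 for Lgals4 and of -4.79 ± 0.20 and -3.28 ± 0.15 for Agr2. Cdx2, the intestinal homeobox factor, was at 1.22 to 1.59 in Hep-Orgs, 41.03, 47.4 and 43.05 in Cho-Orgs P5 and 22.4, 23.8 and 23.7 in Cho-Orgs P10. The gastric genes Muc5ac and Gkn2, of the 7 found in Cho-Orgs alone, were near 0 in Hep-Orgs and lower in Cho-Orgs P10 than in Cho-Orgs P5. Muc5ac, the gel-forming mucin of the stomach surface, was at 0.0144 to 0.0443 in Hep-Orgs, 41.8, 31.4 and 54.5 in Cho-Orgs P5 and 0.921, 1.14 and 0.875 in Cho-Orgs P10. Gkn2, a gastrokine, was listed at 0 in all Hep-Orgs and Cho-Orgs P10 libraries and was at 6.78, 6.01 and 10.2 in Cho-Orgs P5. Ctse, an aspartic protease of the stomach, was the member higher in Hep-Orgs at P10, at 1.55 ± 0.08. Tff1, a trefoil peptide that protects the stomach surface, was at 0 to 0.109 in Hep-Orgs, 315, 207 and 298 in Cho-Orgs P5 and 4.64, 3.57 and 3.405 in Cho-Orgs P10, and 11.2% of its windows occur in another gene.

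Of 9 fetal liver genes 2 reached the filter in each kind and 2, Afp and Gpc3, in Cho-Orgs alone. Afp, alpha-fetoprotein, was at 0.346 to 0.527 in Hep-Orgs, 11.8, 14.6 and 13.9 in Cho-Orgs P5 and 1.31, 0.921 and 1.05 in Cho-Orgs P10, a difference of -3.16 ± 0.10 and -0.60 ± 0.09. Gpc3, a glypican of fetal liver, was called higher in Cho-Orgs at both passages, at -3.05 ± 0.20 and -2.69 ± 0.03. Dlk1, a surface protein of hepatoblasts, was called higher in Hep-Orgs at P5, at 1.86 ± 0.08, with 2.602 to 3.095 in Hep-Orgs and 0.0641 to 3.62 in Cho-Orgs. Cd24a, which is also a progenitor marker, was called higher in Hep-Orgs at both passages, at 1.09 ± 0.02 and 1.52 ± 0.02, and stood at 0.60, not called, and 1.25 on common lengths.

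Some groups answer to factors that differ between the media. Dexamethasone is a ligand of the glucocorticoid receptor and was present in the medium of Hep-Orgs alone. Of 12 glucocorticoid-linked genes, the receptor included, 10 reached the filter in each kind and 2, Zbtb16 and Pdk4, in Hep-Orgs alone. Of the 10, 7 were higher in Hep-Orgs at P5 and 8 at P10 (14.5% and 14.6% of all symbols so measured), and 2 and 1 were higher in Cho-Orgs, with medians of 1.62 and 1.69. On common lengths 5 and 6 of them were higher in Hep-Orgs. Fkbp5, a chaperone that restrains the receptor, was at 255, 250.3 and 256 in Hep-Orgs P5 and 263, 262 and 260.0 in Hep-Orgs P10, against 18.8, 25.1 and 23.4 in Cho-Orgs P5 and 8.89, 8.2 and 8.78 in Cho-Orgs P10. Sgk1, a kinase that controls sodium channels, was at 170.0, 169.7 and 168 in Hep-Orgs P5 and 177, 177 and 174 in Hep-Orgs P10, against 3.895, 3.19 and 4.48 in Cho-Orgs P5 and 7.62, 6.601 and 6.63 in Cho-Orgs P10. Zbtb16, a zinc finger factor, was at 30.5 to 32.6 in Hep-Orgs and 0.00973 to 0.118 in Cho-Orgs. Every Hep-Orgs library was above every Cho-Orgs library for these genes, with P5 and P10 differences of 4.15 ± 0.12 and 5.38 ± 0.04 for Fkbp5, 5.60 ± 0.11 and 4.92 ± 0.06 for Sgk1 and 5.25 ± 0.04 and 5.24 ± 0.03 for Zbtb16. Pdk4, which blocks pyruvate oxidation, and Tsc22d3, which encodes the anti-inflammatory protein GILZ, were also higher in Hep-Orgs, by 4.77 ± 0.03 and 3.86 ± 0.04 at P5. The metallothioneins were split. Mt1 was at 613 to 711 in Hep-Orgs, 111 to 116 in Cho-Orgs P5 and 36.8 to 41.8 in Cho-Orgs P10. Mt2 was at 4.28 to 6.21 in Hep-Orgs, 147 to 165 in Cho-Orgs P5 and 31.2 to 37.7 in Cho-Orgs P10, and 21.9% of its windows occur in another gene, so its counting is uncertain. Nr3c1, the receptor itself, was higher in Hep-Orgs by 1.07 ± 0.10 and 1.33 ± 0.04, and by 0.58 and 0.87 on common lengths, where it was not called.

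DAPT blocks the gamma-secretase that releases active Notch, and was also present in the medium of Hep-Orgs alone. Of 12 Notch pathway genes 6 reached the filter in each kind and 2, Nrarp and Hey1, in Cho-Orgs alone. Of the 6, 3 were higher in Hep-Orgs and 2 in Cho-Orgs at P5 (14.5% and 13.5% of all symbols so measured). At P10 the counts were 1 and 1 (14.6% and 14%). On common lengths they were 2 and 1 at P5 and again 1 and 1 at P10. Nrarp, a feedback target of Notch, was at 0.1103 to 0.179 in Hep-Orgs, 6.82, 7.57 and 7.097 in Cho-Orgs P5 and 4.52, 5.35 and 4.796 in Cho-Orgs P10, although 74.2% of its windows occur in another gene. Hey1, another target, was at 0.0188 to 0.08499 in Hep-Orgs, 1.77, 1.39 and 1.72 in Cho-Orgs P5 and 0.272, 0.321 and 0.111 in Cho-Orgs P10. Hey1 was called at P5, at -1.21 ± 0.06, but not on common lengths, at -0.96. Hes1, the target that is most used as a readout, was not called at 26.2 to 29.7 in Hep-Orgs and 41.8 to 51.5 in Cho-Orgs, a difference of -0.25 ± 0.03 and -0.10 ± 0.06. Of the receptors, Notch1 was higher in Hep-Orgs by 1.55 ± 0.07 and 1.68 ± 0.02 and Notch3 was higher in Cho-Orgs at P5, at -1.22 ± 0.05. Of the ligands, Jag2 was at -1.11 ± 0.03 and -1.12 ± 0.02 and stood at -0.98 and -0.99, not called, on common lengths. Jag1 at P5 went from 1.01 ± 0.02 to -0.14 on common lengths.

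Wnt3a was present in the medium of Cho-Orgs and the GSK3 inhibitor CHIR99021 in that of Hep-Orgs. Of 7 Wnt targets that reached the filter in each kind 2 were higher in Hep-Orgs and 1 in Cho-Orgs at P5, and 4 and 0 at P10, beside 14.5%, 13.5%, 14.6% and 14% of all symbols so measured. On common lengths 3 were higher in Hep-Orgs at P10. Glul, glutamine synthetase of the hepatocytes around the central vein, was at 217 to 222 in Hep-Orgs and 23.4 to 26.8 in Cho-Orgs, a difference of 3.68 ± 0.02 and 3.81 ± 0.02. Axin2, a direct target of the pathway, was at 6.99 to 7.96 in Hep-Orgs, 5.42, 5.54 and 5.86 in Cho-Orgs P5 and 2.79, 2.84 and 2.598 in Cho-Orgs P10, and was called at P10 alone, at 1.30 ± 0.02. Lgr5, the R-spondin receptor of stem cells, was called higher in Cho-Orgs at P5, at -2.18 ± 0.03, with 1.26 to 1.43 in Hep-Orgs, 11.4, 11.3 and 10.8 in Cho-Orgs P5 and 2.72, 2.21 and 2.49 in Cho-Orgs P10. Forskolin, which raises cAMP, was in the medium of Cho-Orgs. Of 12 cAMP targets 5 reached the filter in each kind, of which 1 was higher in Hep-Orgs and 2 in Cho-Orgs at P5, and 1 and 1 at P10, too few to set beside the share of all symbols. Areg, the EGF receptor ligand amphiregulin, was at 0.776 to 1.72 in Hep-Orgs, 60.9, 59.5 and 60.9 in Cho-Orgs P5 and 49.8, 46.6 and 46.9 in Cho-Orgs P10, a difference of -4.41 ± 0.10 and -4.13 ± 0.19. Nr4a1, an immediate-early nuclear receptor that reached the filter in Cho-Orgs alone, was at 0.317 to 0.616 in Hep-Orgs, 19.9, 17.8 and 20.2 in Cho-Orgs P5 and 3.299, 2.81 and 3.31 in Cho-Orgs P10. Fos, another early factor, was the member higher in Hep-Orgs at both passages, by 1.83 ± 0.04 and 2.65 ± 0.06. Of 7 targets of BMP and TGF-beta that reached the filter in each kind 1 was higher in Hep-Orgs and 1 in Cho-Orgs at P5, and 1 and 2 at P10, which is near the share of all symbols so measured. Of 11 targets of YAP, the effector of the Hippo pathway, 9 were found in both tables and 8 reached the filter in each kind. Of the 8, 0 were higher in Hep-Orgs at either passage, and 3 at P5 and 5 at P10 were higher in Cho-Orgs. The share of all symbols so measured that was higher in Cho-Orgs was 13.5% and 14%. On common lengths 3 and 4 of the 8 were higher in Cho-Orgs. Ccnd1, which encodes cyclin D1, had the largest difference of the 8, at 51.1 to 54.8 in Hep-Orgs and 467 to 526 in Cho-Orgs, or -2.42 ± 0.05 and -2.39 ± 0.02, and 17.2% of its windows occur in another gene. Id3, a BMP-induced inhibitor of helix-loop-helix factors, was higher in Cho-Orgs at -1.19 ± 0.06 and -2.03 ± 0.10 and stood at -0.69, not called, and -1.47 on common lengths. The part of any one medium factor in these differences was not tested.

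Most cell cycle genes were higher in Cho-Orgs at P5, and 1 of them was at P10. Of 18 proliferation genes 14 reached the filter in each kind and 4 in Cho-Orgs alone. Of the 14, 11 were higher in Cho-Orgs at P5 and 1 at P10 (13.5% and 14% of all symbols so measured), with 0 higher in Hep-Orgs, and the median went from -1.73 to -0.20. On common lengths these counts were 9 and 0. Mki67, the antigen of cycling cells, was at 2.55, 2.29 and 2.71 in Hep-Orgs P5 and 2.27, 2.597 and 2.89 in Hep-Orgs P10. It was at 15.2, 16.3 and 15.8 in Cho-Orgs P5 and 1.31, 1.26 and 1.26 in Cho-Orgs P10. Cho-Orgs thus lay above Hep-Orgs at P5, at -2.03 ± 0.07, and below them at P10 without a call, at 0.66 ± 0.08. Ccna2, cyclin A2, of whose windows 10.6% occur in another gene, had P5 and P10 differences of -2.84 ± 0.05 and -0.09 ± 0.05, and Top2a, topoisomerase II alpha, of -1.88 ± 0.06 and 0.32 ± 0.04. Mcm2, a subunit of the replicative helicase, was the member called at both passages, and at -0.86 and -0.36 it was called at neither on common lengths.

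Fewer biosynthetic and stress genes were called at P10 than at P5. Of 12 cholesterol synthesis genes, all of which reached the filter in each kind, 9 were higher in Cho-Orgs at P5 and 3 at P10 (13.5% and 14% of all symbols so measured), and 0 were higher in Hep-Orgs. Mvd, which decarboxylates mevalonate diphosphate, was at 5.94 to 7.15 in Hep-Orgs, 57.8, 55.3 and 56.1 in Cho-Orgs P5 and 31.04, 32.6 and 30.9 in Cho-Orgs P10, a difference of -2.41 ± 0.03 and -1.75 ± 0.06. Of 11 glycolysis genes 7 were higher in Cho-Orgs at P5 and 2 at P10, and Pklr, the liver isozyme of pyruvate kinase, was the 1 higher in Hep-Orgs, at 1.22 ± 0.06 and 1.10 ± 0.08, but at 0.98 and 0.88, not called, on common lengths. Hk2, an inducible hexokinase, was at 6.14 to 6.38 in Hep-Orgs, 36.5, 33.7 and 35.2 in Cho-Orgs P5 and 14.5, 15.5 and 14.98 in Cho-Orgs P10. Gapdh was at only 4.18 to 5.69 in Hep-Orgs and 21.1 to 59.7 in Cho-Orgs, a difference of -2.96 ± 0.13 and -1.76 ± 0.07 that was -0.90, not called, at P10 on common lengths, with 21.3% of its windows in another gene, and Pgk1 (53.3%), Eno1 (18.6%) and Pklr (17.8%) also share windows, so that counting of these genes is uncertain. Of 10 genes of the AhR and NRF2 responses that reached the filter in each kind 7 were higher in Cho-Orgs at P5 and 1 at P10, with 5 and 1 on common lengths. Slc7a11, the cystine transporter of the antioxidant response, was at 1.16 to 1.56 in Hep-Orgs, 33.03, 34.8 and 33.1 in Cho-Orgs P5 and 45.2, 45.1 and 44.5 in Cho-Orgs P10. Nqo1, a quinone reductase that reached the filter in Cho-Orgs alone, was at 0.236 to 0.642 in Hep-Orgs, 13.96, 17.5 and 15.9 in Cho-Orgs P5 and 2.605, 2.35 and 2.93 in Cho-Orgs P10. Cyp1a1, the P450 that most marks AhR activity, was the member higher in Hep-Orgs at both passages, by 1.82 ± 0.08 and 3.89 ± 0.09.

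Immune genes were called at different passages. Of 10 interferon-stimulated genes that reached the filter in each kind 1 was higher in Hep-Orgs at P5 and 8 at P10 (14.5% and 14.6% of all symbols so measured), and 0 were higher in Cho-Orgs, with medians of 0.32 and 1.71. Ifit1, which binds foreign RNA, was at 13.9 to 15.98 in Hep-Orgs, 4.91, 4.19 and 5.09 in Cho-Orgs P5 and 0.676, 1.26 and 1.305 in Cho-Orgs P10. It was higher in Hep-Orgs at both passages, by 1.72 ± 0.07 and 3.13 ± 0.16. Of 6 antigen presentation genes that reached the filter in each kind 3 were higher in Cho-Orgs at P5 and 0 were called at P10. The shares of all symbols so measured that were higher in Cho-Orgs were 13.5% and 14%. On common lengths 1 of the 6 was called at P5. H2-K1, a class I heavy chain, was at -1.26 ± 0.12 and -0.31 ± 0.09. Of 9 epithelial chemokines and cytokines that reached the filter in each kind 2 were higher in Cho-Orgs at P5 and 5 at P10, with 2 and 4 on common lengths. Beside the same shares of 13.5% and 14%, the P5 count is near its share. Lcn2, which binds iron-carrying siderophores, was the 1 higher in Hep-Orgs. Lcn2 was at 2582 to 2666 in Hep-Orgs and 409 to 528 in Cho-Orgs, a difference of 2.97 ± 0.04 and 3.01 ± 0.01. Cxcl5, a neutrophil attractant, was at 15.6 to 16.97 in Hep-Orgs, 20.1, 13.4 and 9.804 in Cho-Orgs P5 and 96.2, 98.95 and 105 in Cho-Orgs P10, and was called at P10 alone, at -2.01 ± 0.04.

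Over all symbols, 10 genes in each direction were chosen by the smaller of the P5 and P10 differences among those called at both. Of those higher in Hep-Orgs 9 are named here, Sult1d1, Fkbp2, Zbtb16, Rbp2, Fga, Slc2a2, Sgk1, Crp and C3, and all 9 were also called on common lengths. All were chosen for large differences, so their calls on common lengths are no further support. Sult1d1, Fkbp2, Zbtb16 and Slc2a2 reached the filter in Hep-Orgs alone, so their calls are no independent result. Sult1d1, a sulfotransferase of dopamine and other amines, was at 875, 866 and 852 in Hep-Orgs P5 and 887, 894 and 909 in Hep-Orgs P10, against 0.177, 0.186 and 0.0436 in Cho-Orgs P5 and 0.394, 0.401 and 0.301 in Cho-Orgs P10. Its difference of 10.09 ± 0.05 and 9.72 ± 0.03 was the largest in absolute value of the 11136 symbols at each passage. Rbp2, which carries retinol in enterocytes, was at 242 to 256 in Hep-Orgs and 9.02 to 10.5 in Cho-Orgs. Crp, C-reactive protein of the acute phase, was at 55.5 to 59.3 in Hep-Orgs and 0.452 to 1.62 in Cho-Orgs. Fkbp2, a prolyl isomerase of the endoplasmic reticulum that most cells use, was at 39.2 to 41.4 in Hep-Orgs and listed at 0 to 0.0647 in Cho-Orgs. Fkbp2 shares no window with another gene, and whether it was counted alike in both tables was not tested. Of those higher in Cho-Orgs 9 are named here, Rpl36al, Sprr2a3, Krt4, Nme2, Emp1, Hypk, Fdps, Rnaset2a and Tomm6, all also called on common lengths. They too were chosen for large differences. Among them Sprr2a3 alone reached the filter in each kind, and the calls of the others are no independent result. Emp1, a membrane protein of squamous and other epithelia, was at 0.5901, 0.442 and 0.419 in Hep-Orgs P5 and 0.456, 0.465 and 0.468 in Hep-Orgs P10, against 105, 110.0 and 109 in Cho-Orgs P5 and 183, 188 and 195 in Cho-Orgs P10. Krt4 and Emp1 share no window with another gene. The other 7 named, among them the kinase Nme2 (32.1%) and the farnesyl diphosphate synthase Fdps (20.3%), share 18.1% to 63.6% of their windows, so that their counting in either table is uncertain. Rpl36al, Hypk and Tomm6 are used by most cells and stood at 0 to 1.26 in Hep-Orgs.

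The change from P5 to P10 was tested within each table. In Hep-Orgs limma called 3 of 10986 genes between P5 and P10 (0.0273%), with 1266 at an unadjusted p under 0.05. Of the 3, 2 were higher at P10 (0.0182% of all) and 1 was lower (0.0091%). They were Rpl39 (0.38, adjusted p = 0.0317), Rps25 (0.16, adjusted p = 0.0403) and AC161199.1 (-0.74, adjusted p = 0.0317), none of them a gene of the lists. All 3 calls were lost, with 0 genes called, with the replicate number as a block, from P5 and P10 alone, without a filter on low values, without replicate 2 and without replicate 3. In Cho-Orgs limma called 7132 of 11593 genes (61.5%), 3599 higher at P10 (31%) and 3533 lower (30.5%). The chi-square per degree of freedom of fragment counts was 2.15 to 3.14 between Hep-Orgs P5 and P10. It was 236 to 257 between Cho-Orgs P5 and P10. Hep-Orgs P5 and P10 were about as near to the libraries labelled Primary hepatocytes, at 1.99 to 4.11. The labels of the hepatocyte table are thus in doubt, and whether its few calls mean stable organoids was not tested. The change of P10 against P5 differed between Hep-Orgs and Cho-Orgs, by limma on the levels, for 6936 of 11136 symbols (62.3%), with 3067 above 0 (27.5%) and 3869 below 0 (34.7%). This fit used a common estimate of the spread for the Hep-Orgs and Cho-Orgs groups. The 9835 genes drawn in the plot of passage changes moved by -0.97 to 1.29 in Hep-Orgs and by -7.37 to 5.18 in Cho-Orgs.

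**Figure D5:**
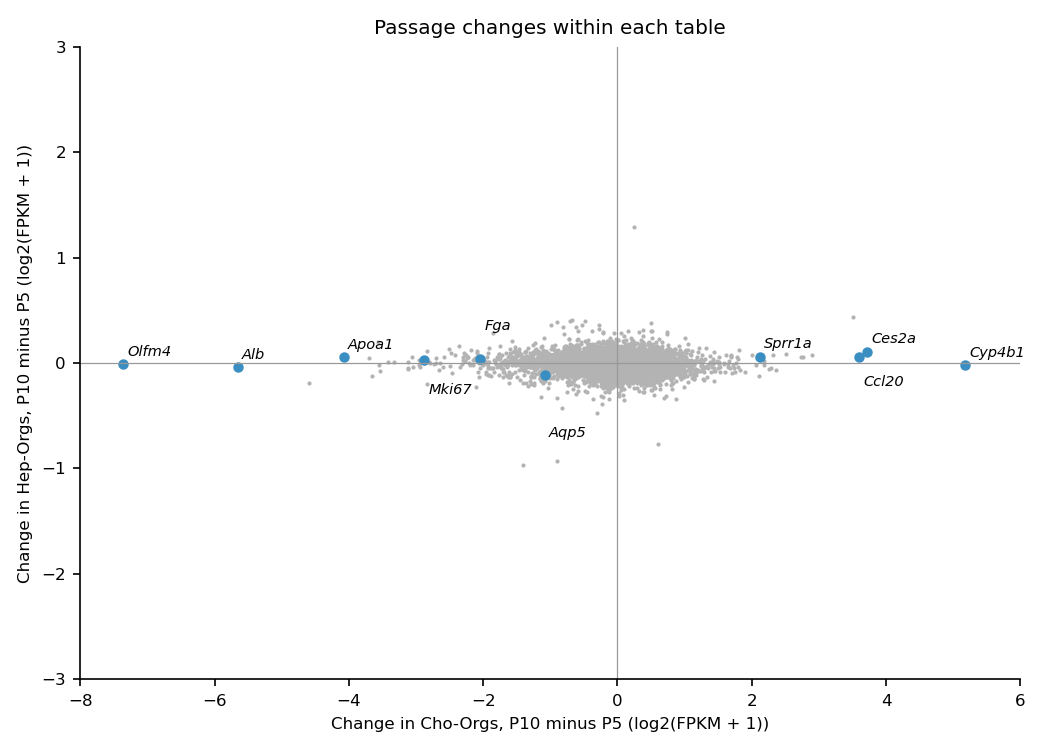
Change from P5 to P10 in log2(FPKM + 1) for the 9835 genes tested in both tables, in Cho-Orgs (x axis) and in Hep-Orgs (y axis). Each point is a gene and named genes are in blue. The points spread along the Cho-Orgs axis and stay near 0 on the Hep-Orgs axis, with Olfm4, Alb and Apoa1 at the far left and Cyp4b1, Ces2a and Ccl20 at the far right.

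Plasma protein genes fell in Cho-Orgs from P5 to P10 and did not pass the test in Hep-Orgs. All 14 measured plasma proteins fell in Cho-Orgs (30.5% of all genes fell), with a median change of -2.06, and 0 of 14 were called in Hep-Orgs, where the median was -0.0018. Alb fell in Cho-Orgs by 5.66 (limma, adjusted p = 1.25e-09), and the difference of the changes was 5.20 ± 0.12 (limma, adjusted p = 2.55e-12). Fga fell in Cho-Orgs by 2.05 (limma, adjusted p = 3.59e-05). Of 13 hepatocyte metabolism genes 7 fell and 1 rose in Cho-Orgs. Cyp2d10 was the gene that rose, by 1.60 ± 0.13 (limma, adjusted p = 5.03e-06). Of 18 proliferation genes 17 fell, Mki67 among them by 2.88 (limma, adjusted p = 9.41e-08), with 0 of 15 called in Hep-Orgs. Of the 18, 4 reached the filter in Cho-Orgs alone. In Cho-Orgs 11 of 12 cholesterol synthesis genes, 10 of 11 glycolysis genes, 10 of 11 interferon-stimulated genes, 9 of 11 genes of the AhR and NRF2 responses and 8 of 9 antigen presentation genes fell, and 9 of 11 chemokines and cytokines rose (31% of all genes rose). Of 15 gastric and intestinal genes 9 fell and 1 rose, and of 11 squamous genes 6 fell and 3 rose. Of these, 7 gastric and intestinal genes and 8 squamous genes reached the filter in Cho-Orgs alone. A gene that reached it through its P5 values alone, as Gkn2 did, could hardly do other than fall. Its fall is no independent result. Lor, which encodes loricrin of the cornified envelope, rose from 5.6, 4.07 and 5.51 to 99.2, 99.1 and 108 (limma, adjusted p = 8.07e-09). Ivl and Sprr1a, other envelope precursors, also rose, by 2.18 ± 0.11 and 2.12 ± 0.17 (limma, adjusted p = 3.33e-07 and 5.79e-06), whereas Krt13 fell by 1.91 (limma, adjusted p = 2.77e-04). Of 14 cholangiocyte markers 5 fell and 1, Krt7, rose by 0.42 ± 0.06 (limma, adjusted p = 2.26e-04). In Hep-Orgs 0 genes of any list were called, with each list tested in the same limma fit.

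Few markers of other liver cell types passed the filter. Of 12 macrophage markers 2 passed the filter, and Clec4f, Ptprc, Marco, Vsig4, C1qa, C1qb and Tyrobp were listed at 0 in all 12 libraries. Cd68, a lysosomal protein of macrophages that other cells also make, was at 4.24 to 7.21 in Hep-Orgs, 71.8, 76.9 and 74.7 in Cho-Orgs P5 and 9.51, 9.88 and 9.203 in Cho-Orgs P10, and with Csf1r (of whose windows 11.7% occur in another gene) it made up nearly all of the list's summed FPKM of 7.35 to 9.86 in Hep-Orgs P5, 8.57 to 9.64 in Hep-Orgs P10, 72.1 to 77.3 in Cho-Orgs P5 and 10.1 to 10.5 in Cho-Orgs P10. Of 14 stellate and mesenchymal markers 1, Reln, passed, and the summed FPKM was 7.81 to 8.47 in Hep-Orgs, 8.14 to 9.01 in Cho-Orgs P5 and 0.225 to 0.382 in Cho-Orgs P10. Reln, a secreted matrix protein, was at 5.21 to 5.79 in Hep-Orgs, 7.01, 7.99 and 7.07 in Cho-Orgs P5 and 0.0807, 0.0707 and 0.0935 in Cho-Orgs P10. Of 10 endothelial markers 1, Egfl7, passed, with a summed FPKM of 1.57 to 2.21 in Hep-Orgs, 17.8 to 20.5 in Cho-Orgs P5 and 7.98 to 9.01 in Cho-Orgs P10. The defining markers Pecam1, Kdr and Cdh5 were at no more than 0.0721 in any library. In bulk libraries fewer cells of a type and less RNA per cell cannot be told apart, for these markers and for every gene above.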

How the data were processed

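Bulk poly(A) RNA-seq libraries of both organoid kinds were used as the FPKM values that the authors deposited, gene counts divided by gene length and by library total in each table. The submitters' processing notes name featureCounts 2.0.3, edgeR 3.40.2 and mm10, and the aligner is not given in the sources used here. Some genes are not reported here. Columns of the authors' own comparisons were not used. Fragment totals were recovered from the FPKM steps, with whole numbers taken within 0.02. The members and gene lists were chosen with earlier results of these data known. From all symbols, 10 in each direction were named by the smaller of their differences, 5 in each direction by the difference of the passage changes, passing over clone and predicted-gene names. List members were named first where called at both passages with a large mean difference, and others were named freely. Passage was tested on log2(FPKM + 1) with limma 3.58.1 (R 4.3.3) after a filter of FPKM of at least 1 in 3 libraries, with Benjamini-Hochberg adjustment at 0.05, over 12 libraries of the hepatocyte table and 9 of the cholangiocyte table, and its difference between kinds on the levels. Differences between tables got no test, and an exact permutation test of 3 against 3 cannot go below 0.1. Shared windows are 100-base transcript stretches of GENCODE annotation that occur in another gene. Ranks used pandas 2.3.3. Calls and fits were tested on simulated data. The simulated calls gave both kinds the same profile but for set changes and a constant scale. They therefore do not cover the unlike gene lengths of the tables. Alternatives covered scaling, pseudocount, filters, size limits, gene lengths, shared windows, symbol matching and each replicate number left out of every group. The study's legends tie replicate numbers to mice, which pairs P5 with P10, and the deviations of same-numbered libraries correlated at -0.0057 to 0.0181 in Hep-Orgs and -0.0809 to -0.0034 in Cho-Orgs.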

Additional observations from a re-analysis of the deposited data

Results flagged for a closer look

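The change from P5 to P10 differed between Hep-Orgs and Cho-Orgs for 6936 of 11136 symbols by limma's test of the difference itself. This test used a common estimate of the spread for the Hep-Orgs and Cho-Orgs groups. Its p-values can be too small for genes that spread more in Cho-Orgs than in Hep-Orgs, as Olfm4 did. The genes below have the largest such differences, given as the change in Hep-Orgs minus that in Cho-Orgs on the level scale. Hep-Orgs and Cho-Orgs come from separate tables, so organoid kind and table cannot be told apart.

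Genes with a difference above 0 were lower in Cho-Orgs P10 than in Cho-Orgs P5. Olfm4, a secreted marker of intestinal stem cells, was at 417, 302 and 355 FPKM in Cho-Orgs P5 and 1.05, 1.52 and 0.941 in Cho-Orgs P10, with 13.8 to 15.5 in Hep-Orgs, and its difference was 6.80 (limma, adjusted p = 5.15e-13). Tff1, a trefoil peptide, had a difference of 5.39, and 11.2% of its windows occur in another gene. Alb, serum albumin, had a difference of 5.20. Il33, an alarmin cytokine, was at 126, 119.7 and 126 in Cho-Orgs P5 and 2.85, 2.24 and 2.51 in Cho-Orgs P10, with 0.296 to 0.595 in Hep-Orgs, and its difference was 4.86. Wfdc1, a secreted protein of the WAP family, was at 104, 98.5 and 116 in Cho-Orgs P5 and 4.42, 2.94 and 2.83 in Cho-Orgs P10, with 0 to 0.139 in Hep-Orgs, and its difference was 4.36.

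Genes with a difference below 0 were higher in Cho-Orgs P10. Cyp4b1, a cytochrome P450 that oxidizes fatty acids and furans, was at 0.456, 0.588 and 0.408 in Cho-Orgs P5 and 56.4, 50.04 and 51.5 in Cho-Orgs P10, with 118 to 123 in Hep-Orgs, and its difference was -5.01 (limma, adjusted p = 6.12e-15). Lor, loricrin of the cornified envelope, had a difference of -3.82. Ces2a, a carboxylesterase, was at 0.364, 0.387 and 0.385 in Cho-Orgs P5 and 16.9, 17.2 and 17.3 in Cho-Orgs P10, with 5.04 to 6.19 in Hep-Orgs, and its difference was -3.45. Ccl20, which attracts cells with the receptor CCR6, was at 30.3, 30.1 and 27.3 in Cho-Orgs P5 and 350.4, 371 and 379 in Cho-Orgs P10, with 2.004 to 3.01 in Hep-Orgs, and its difference was -3.41. Calcb, a calcitonin gene-related peptide, was at 0.0461, 0.152 and 0.05302 in Cho-Orgs P5 and 9.98, 10.6 and 10.1 in Cho-Orgs P10, with 0 to 0.0419 in Hep-Orgs, and its difference was -3.27. Calcb reached the filter through its Cho-Orgs P10 values alone and could hardly do other than rise there. Its difference is no independent result.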

How the results depend on the processing

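The count of symbols called between Hep-Orgs and Cho-Orgs moved with the measure. At P5, P10 and both passages it was 5682, 5571 and 4411 by percentile rank, 860, 860 and 572 with a size limit of 2, 2343, 2315 and 1520 on common gene lengths, and 1922, 1892 and 1204 when genes with shared windows were also left out, these last settings on common lengths being chosen after seeing the data. A mean FPKM of at least 5 left 2372 at P5 through fewer symbols tested. Without replicate 1, 2 or 3 of every group at once it was 3567 to 3584 at P5, 3463 to 3479 at P10 and 2558 to 2586 at both. The passage changes of Cho-Orgs and their difference from Hep-Orgs were 951 and 759 genes when a size of at least 1 was also asked, and 5227 to 6378 and 5880 to 6066 without 1 replicate number of every group. In Hep-Orgs 0 genes were called with that size, without a filter on low values or from P5 and P10 alone, and 0 to 2 without 1 replicate number of every group. No setting left out a single library.

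With the replicate block limma called 0 genes in Hep-Orgs, 6939 in Cho-Orgs and 6744 for the difference of the changes, and it changed no other call of the passage changes that are printed.

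The Spearman correlation at P5 and P10 was 0.893 and 0.900 without a filter, 0.589 and 0.577 at a mean FPKM of at least 5, 0.753 and 0.761 without ribosomal protein, mitochondrial and histone genes, 0.808 and 0.811 on common gene lengths, and 0.757 to 0.758 and 0.764 to 0.765 without 1 replicate number of every group. Among named genes, Jag1 at P5 turned to -0.14 on common gene lengths, and the difference of the passage changes of Krt4 turned to 0.0783 (limma, adjusted p = 0.783) with a pseudocount of 0.1. Of 4516 gene differences between kinds under the alternatives, 2954 moved by less than the spread between libraries and 1561 by more. Causes not shown by an alternative's own construction were not tested. Depth limits the low genes most in Hep-Orgs P10, which has the fewest fragments.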

Other observations

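Of 5 sex-linked genes listed, the X-inactivation transcript Xist was the 1 symbol found in both tables. Its FPKM was 181, 186 and 181 in Hep-Orgs P5, 173, 179 and 171 in Hep-Orgs P10, 94.9, 84.2 and 83.8 in Cho-Orgs P5 and 138, 148 and 157 in Cho-Orgs P10, and 11.3% of its windows occur in another gene. The other 4, the Y-linked Kdm5d, Ddx3y, Uty and Eif2s3y, were found in the hepatocyte table alone, at 0 to 0.0107 in Hep-Orgs. The study's materials name male mice, and the labels give no sex. Prap1 and Bsg were the other genes called higher in Cho-Orgs at P5 and higher in Hep-Orgs at P10. Prap1, a secreted protein of uterus, liver and gut, was at 16.9 to 21.3 in Hep-Orgs, 82.5, 69.03 and 71.3 in Cho-Orgs P5 and 4.51, 6.82 and 5.28 in Cho-Orgs P10. Bsg, basigin, a chaperone of lactate transporters, was at 634 to 674 in Hep-Orgs, 2570.0, 2761 and 2635 in Cho-Orgs P5 and 552, 541 and 521 in Cho-Orgs P10. These genes were chosen after their values were seen.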
